A study of Mus musculus with 9 samples.

Results

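The acrosome is the secretory vesicle that caps the sperm nucleus, and 10 genes for its contents, its membranes and its attachment to the nucleus were examined: Acr, Acrbp, Acrv1, Spaca7, Spaca1, Spaca3, Izumo1, Zpbp, Zpbp2 and Dpy19l2. They were chosen by name, and all 10 were found among the 23074 genes of the count table and were expressed highly enough to be tested. RNA came from whole testes without their capsule, at 29 to 30 days after birth, from mice of a mixed C57BL/6, 129/Sv and FVB/N background, with 1 library per mouse. The control group was 5 wild type mice and the mutant group 4 Rfx2-/- mice, which carry a deletion of exon 7 of Rfx2 made with a Cre driven by the ACTB promoter. RFX2 is a transcription factor that binds the X-box motif, and the comparison asks which transcripts of the testis depend on it.

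The acrosome forms in round spermatids, when vesicles from the Golgi apparatus fuse on the nuclear envelope and the resulting cap spreads over the nucleus. A cytoskeletal plate, the acroplaxome, and proteins of the inner nuclear membrane anchor it there. Its contents and membrane proteins act later, when the sperm releases the vesicle, crosses the zona pellucida and fuses with the egg. Many acrosome transcripts are made before and during the cap phase, so a testis that holds round spermatids can express them before elongation begins.

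Of the 10 genes, only Dpy19l2, the gene for the anchoring protein, fell in Rfx2-/- testes, to 46.7% of the wild type mean. The other 9 overlapped between the genotypes, with mean levels of 91.0% to 146% of wild type. The lower ends of their 95% intervals lay between -0.56 and 0.12 on the log2 scale, so that a 2-fold decrease was outside each interval. Calls required an adjusted p of at most 0.01 in the quasi-likelihood F test of edgeR together with a change of more than 2-fold. By this rule 1 of the 10 genes was lower and 0 were higher, against 3.68% of the 15613 genes tested called lower and 0.826% called higher. At an adjusted p of at most 0.05 without a fold limit the counts were again 1 lower and 0 higher, against 7.31% and 3.48% of all genes. At an unadjusted p under 0.05 they were 1 lower and 3 higher. The share of all genes at this unadjusted limit was not counted, so the 3 are not read as a result. Only 1 member, lower, had no overlap between genotypes, and 9 overlapped, while 9.7% of all genes lay apart with the knockout lower and 6.16% with the knockout higher. The median log2 fold change of the 10 genes was 0.16, with 4 below 0, and that of all genes tested was 0.03, with 46.9% below 0.

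Libraries held 13574764 to 15193330 counts, except Rfx2-/- replicate 1 with 28800855, and the lowest count of a member in any library was 612. Rfx2 itself was at 471 to 624 CPM (the count relative to the library total after TMM scaling, a correction for composition) in wild type libraries and at 61.5 to 199 CPM in Rfx2-/- libraries, a log2 fold change of -1.91 (SE 0.28, adjusted p = 7.81e-04, edgeR). Its remaining exons are still counted. Rfx2-/- replicate 2 stood apart from the other knockout libraries. It held 3361 counts of Crisp1, an epididymal secretory gene, against 0 to 47 in the other 8 libraries, and 389 of Adam7 against 0 to 8, while Lcn5 had 2 counts and Defb1 8. Crisp1, Lcn5 and Defb1 were on a list of epididymal markers, as was Adam28, with at most 4 counts in any library. Adam7, Rnase9 (137 counts in this library against 0 to 5) and Defb22 (219 against 0 to 6) were added after their values were seen. The median log2 difference of Rfx2-/- replicate 2 from the other knockout libraries was 0.62 over genes whose exons sum to less than 2 kb. It was -0.95 over genes above 8 kb. The part of either in the acrosome genes was not tested, and the members that it moves by over 1.5 times are also given without it.

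**Figure D1:**
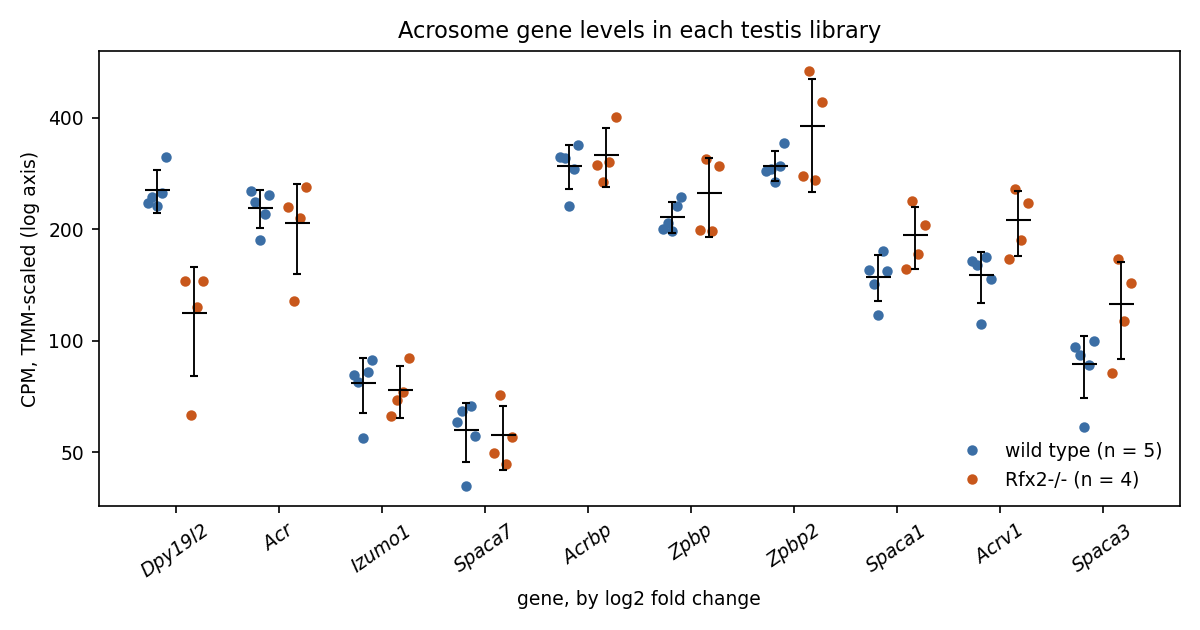
TMM-scaled CPM on a log axis for each of the 10 acrosome genes, ordered from the most negative to the most positive log2 fold change; points are the 5 wild type (blue) and 4 Rfx2-/- (orange) libraries, with mean and SD in black. The Dpy19l2 points do not overlap, 63.3 to 145 CPM against 231 to 314, and in the other 9 genes they do.

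DPY19L2 is a protein of the inner nuclear membrane that holds the acrosome to the nucleus. Loss of this gene is a known cause of round-headed sperm without an acrosome. Dpy19l2 (ENSMUSG00000085576) lies on the minus strand of GRCm38 chromosome 9, from 24557047 to 24696293, is protein coding, and shared no sequence of 50 bases with another gene. It was at 235, 244, 231, 250.1 and 314 CPM in wild type replicates 1 to 5 and at 145, 63.3, 123 and 145 CPM in Rfx2-/- replicates 1 to 4. The 4 knockout libraries all lay below the lowest wild type library, and Rfx2-/- replicate 2 was the lowest of them. The means were 255 ± 33.9 CPM (SD, n = 5) and 119 ± 38.6 CPM (SD, n = 4). The log2 fold change was -1.10 (SE 0.23, 95% interval -1.59 to -0.60, adjusted p = 0.00817, edgeR). Without Rfx2-/- replicate 2 it was -0.89 (adjusted p = 2.92e-04, edgeR), past the p limit and under 2-fold, so that the call ended. The call also ended, through the p limit, on leaving out each wild type replicate or Rfx2-/- replicate 3 or 4 (adjusted p = 0.0179 to 0.0283, edgeR), with a log2 fold change of -1.01 to -1.17. The difference stayed lower at an adjusted p of at most 0.05 in each of these fits. In whole testis a smaller share of the cells that express a gene and less RNA per cell cannot be told apart.

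The study's chromatin immunoprecipitation used dissociated germ cells of wild type mice at P21, and not whole testes at 29 to 30 days. Dpy19l2 was the only member of the 10 listed there with an RFX2 peak at its promoter. Of the 15613 genes tested here 953 were so listed, so this single listing is not read as a result about the 10. The study also reports many genes bound by RFX2 that were not lower in the knockout. Whether RFX2 acts on Dpy19l2 directly was not tested. The Dpy19l2 promoter is shown because this gene had both the decrease and a listed peak. The sequence is the RefSeq window from 250 bases before to 50 after the transcription start, GRCm38.p6 chr9:24696244-24696543, minus strand, written 5′ to 3′ along the gene, and the capitals mark the core of a cyclic AMP response element (CRE), TGACG.

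Dpy19l2: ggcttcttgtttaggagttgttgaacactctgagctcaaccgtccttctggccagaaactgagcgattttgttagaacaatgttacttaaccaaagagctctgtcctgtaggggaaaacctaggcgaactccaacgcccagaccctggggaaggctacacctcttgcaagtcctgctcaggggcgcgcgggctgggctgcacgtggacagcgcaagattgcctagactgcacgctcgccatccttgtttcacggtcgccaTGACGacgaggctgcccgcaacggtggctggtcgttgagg

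The X-box was searched for as GTNNCC, a spacer of 0 to 3 bases and NGNAAC, on both strands, by exact match only. The Dpy19l2 window held no exact match and no copy of GTTGCC, a single arm of the motif. Past the start it does hold gctgcccgcaac, which differs from the pattern without a spacer only by a c for the T. How often such near matches occur was not counted. The only CRE core of this window began at base 11 of the transcript. An X-box occurred in 5.25% of 32851 RefSeq promoter windows, GTTGCC in 12.51%, the full CRE (TGACGTCA) in 1.79% and its core TGACG, which is also counted within each full CRE, in 20.81%. Of the 10 genes 9 had a window in the RefSeq table, and of those 0 held an X-box, 1 held GTTGCC (Acrbp, on the minus strand, at position -199 from the start), 1 held a full CRE and 6 held a CRE core. A match is a run of letters and not a measured site. The study assigned peaks to promoters over a longer region than this window, so an X-box under a listed peak may lie outside it.

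The 5 genes whose log2 CPM followed that of Dpy19l2 most closely over the 9 libraries, among 12900 genes with a mean of at least 50 counts, were Cep120, Prom1, Kcnc1, Ccdc96 and Plcd4 (Pearson's r = 0.993, 0.993, 0.992, 0.991 and 0.988). The libraries of both genotypes enter this measure, so that it holds the difference between genotypes. Rfx2-/- replicate 2, the lowest library for Dpy19l2 at 63.3 CPM, enters as well, and r was not computed without that library. All 5 had a negative log2 fold change, of -1.01, -0.67, -1.21, -1.08 and -1.27 in the same order.

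The contents of the acrosome were represented by Acr, Acrbp, Acrv1 and Spaca7, and none of them passed the test. Acr encodes acrosin, the trypsin-like protease of the acrosomal matrix, which is stored as proacrosin. Acr (chromosome 15, 89568326 to 89574585, plus strand) was at 253, 236, 187, 219 and 247 CPM in the wild type and at 230.2, 128, 214 and 260.2 CPM in Rfx2-/-. The knockout libraries lay within the wild type range apart from replicate 4, just above it, and replicate 2, well below it. The means were 229 ± 26.6 CPM (SD, n = 5) and 208 ± 56.7 CPM (SD, n = 4), with a log2 fold change of -0.14 (SE 0.20, adjusted p = 0.68, edgeR) that turned to 0.04 without Rfx2-/- replicate 2.

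Acrbp encodes the protein that binds proacrosin and packs it into the vesicle. Acrbp (chromosome 6, 125049689 to 125063267, plus strand) was at 313, 311, 231, 291 and 338 CPM in the wild type and at 297, 268, 304 and 401 CPM in Rfx2-/-, and its log2 fold change was 0.10 (SE 0.16, adjusted p = 0.729, edgeR) and -0.0029 without Rfx2-/- replicate 4. It was 0.17 without replicate 2. The knockout values lay within the wild type range apart from replicate 4, which was above it. Of its exons, 37.8% overlap Gm44597 on the same strand, which has no row in the table, and whether reads there were left out of the Acrbp count is not known.

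Acrv1, also known as SP-10, encodes an acrosomal matrix protein first made in round spermatids. Acrv1 (chromosome 9, 36693220 to 36698843, plus strand) was at 164, 160.1, 111, 168 and 147 CPM in the wild type and at 167, 257, 187 and 236 CPM in Rfx2-/-. Of the knockout libraries only replicate 1 lay within the wild type range, and the others were above it. The knockout mean was 141% of the wild type mean, with a log2 fold change of 0.495 (SE 0.17, 95% interval 0.12 to 0.87), unadjusted p = 0.0146 and adjusted p = 0.0912 by edgeR.

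Spaca7, a secreted acrosomal protein gene, had the lowest level per kb of exon of the contents genes. On chromosome 8, from 12573029 to 12600744 on the plus strand, it was at 60.5, 64.6, 40.7, 66.7 and 55.4 CPM in the wild type and at 49.9, 71.3, 46.5 and 55.1 CPM in Rfx2-/-, where the log2 fold change was -0.05 (SE 0.18, adjusted p = 0.884, edgeR) and turned to 0.09 with scaling by total counts. It was -0.19 without Rfx2-/- replicate 2, 0.04 without replicate 1 and 0.07 without replicate 3. The wild type range held all knockout libraries but replicate 2, which lay above it. The opposite strand gene D630011A20Rik shares 16.8% of its exon bases, and whether strand was used in counting is not stated.

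The product of Acrbp binds the product of Acr, so the ratio of their transcripts within a library was compared. The mean log2 ratio of Acr to Acrbp was -0.37 ± 0.06 (SD, n = 5) in the wild type and -0.64 ± 0.30 (SD, n = 4) in Rfx2-/-. The ranges were -0.45 to -0.31 and -1.06 to -0.37, and Rfx2-/- replicate 2 was the lowest. The difference of -0.27 did not pass the two-sided exact permutation test of the genotype labels (p = 0.0635, adjusted over 2 ratios 0.127, smallest possible p 0.0159). Without Rfx2-/- replicate 2 the difference was -0.13 (adjusted p = 0.286, exact permutation test). It was -0.36 without Rfx2-/- replicate 1 (adjusted p = 0.0714, exact permutation test). With the trend of counts with gene length removed from each library it was -0.38 (adjusted p = 0.254, exact permutation test). The direction was the same in all 11 alternatives, none with an adjusted p under 0.05.

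**Figure D2:**
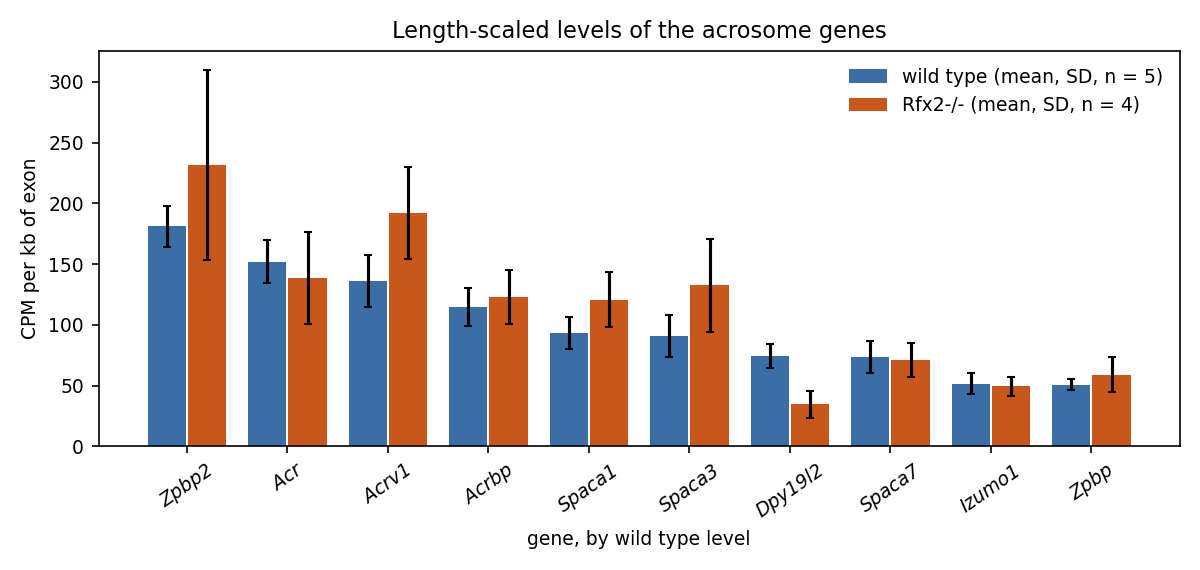
Mean TMM-scaled CPM per kb of exon, with SD, of the 10 acrosome genes in 5 wild type (blue) and 4 Rfx2-/- (orange) libraries, ordered by wild type level. Wild type means ran from 181 for Zpbp2 to 50.8 for Zpbp, and Dpy19l2 passed from 74.0 to 34.6.

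The membrane genes Spaca1, Spaca3 and Izumo1 included none that passed the test. Spaca1 encodes a protein of the inner acrosomal membrane that is needed for the vesicle to form its shape on the nucleus. Spaca1 (chromosome 4, 34024874 to 34050191, minus strand) was at 155, 143, 117, 175 and 155 CPM in the wild type and at 156, 238, 171 and 205 CPM in Rfx2-/-. Replicates 2 and 4 of the knockout exceeded the wild type range and the others lay within it. The log2 fold change was 0.37 (SE 0.16, 95% interval 0.01 to 0.73), with an unadjusted p of 0.0439 and an adjusted p of 0.169 by edgeR.

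Spaca3 encodes a lysozyme-like protein of the acrosomal membrane. Spaca3 (chromosome 11, 80858365 to 80867814, plus strand) was at 96.0, 91.3, 58.5, 86.1 and 100.04 CPM in the wild type and at 81.7, 166, 113 and 143 CPM in Rfx2-/-. The knockout values of replicates 2, 3 and 4 were above all wild type values, while replicate 1 lay within their range. The knockout mean was 146% of the wild type mean, with a log2 fold change of 0.54 (SE 0.22, 95% interval 0.08 to 1.01), unadjusted p = 0.0264 and adjusted p = 0.128 by edgeR. Without Rfx2-/- replicate 2 it was 0.38 (adjusted p = 0.215, edgeR), and that of Acrv1 was 0.39 (adjusted p = 0.105, edgeR).

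Izumo1 encodes the sperm protein that binds JUNO on the egg and is exposed when the acrosome is released. Izumo1 (chromosome 7, 45621811 to 45628823, plus strand) was at 81.0, 77.4, 54.8, 82.4 and 89.0 CPM in the wild type and at 62.5, 69.3, 72.8 and 89.9 CPM in Rfx2-/-, with a log2 fold change of -0.06 (SE 0.17, adjusted p = 0.83, edgeR) that turned to 0.08 with scaling by total counts. Without Rfx2-/- replicate 2 it was -0.04. The ranges of the genotypes nearly coincided. Of its sequences of 50 bases, 18.7% occurred also in transcripts annotated to Rasip1, and such reads may be left out of its count.

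Izumo1 and Spaca1 were the 2 members found among 233 genes that the study's supplementary table marks as targets of CREM, a spermatid transcription factor that binds the CRE. The table as read here holds fewer genes than the study's text gives, so that nothing is drawn for the other 8 members. Their promoters are shown because they hold the CRE (Izumo1, chr7:45621561-45621860, plus strand, TGACGTCA at position -96 from the start) or a pair of its cores (Spaca1, chr4:34050016-34050315, minus strand, TGACG at positions -69 and -59). Capitals mark these letters in the RefSeq windows of GRCm38.p6.

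Izumo1: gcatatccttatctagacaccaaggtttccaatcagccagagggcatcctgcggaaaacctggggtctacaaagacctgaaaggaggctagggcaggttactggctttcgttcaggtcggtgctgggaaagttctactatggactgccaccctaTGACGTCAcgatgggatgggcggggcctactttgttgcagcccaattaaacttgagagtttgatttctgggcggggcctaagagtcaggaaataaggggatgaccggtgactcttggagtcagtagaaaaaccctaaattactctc

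Spaca1: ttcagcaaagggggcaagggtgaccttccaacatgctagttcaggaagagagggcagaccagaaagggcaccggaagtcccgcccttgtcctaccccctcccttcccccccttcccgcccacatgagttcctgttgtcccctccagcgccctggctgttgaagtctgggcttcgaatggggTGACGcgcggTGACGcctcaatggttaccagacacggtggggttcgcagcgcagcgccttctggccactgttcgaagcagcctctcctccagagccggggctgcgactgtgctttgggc

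Zpbp and Zpbp2 encode paralogous proteins of the acrosomal matrix that bind the zona pellucida and are needed for normal acrosome compaction. Zpbp lies on chromosome 11, from 11279626 to 11462408, minus strand, and Zpbp2 on the same chromosome, from 98551097 to 98558665, plus strand. Zpbp was at 200.02, 208, 197, 230.4 and 244 CPM in the wild type and at 199, 309.5, 198 and 296 CPM in Rfx2-/-, a log2 fold change of 0.21 (SE 0.17, adjusted p = 0.434, edgeR). Zpbp2 was at 288, 291, 268, 296 and 342 CPM in the wild type and at 278, 533, 271 and 439.7 CPM in Rfx2-/-, a log2 fold change of 0.36 (SE 0.21, adjusted p = 0.276, edgeR). In both genes Rfx2-/- replicates 2 and 4 lay above all wild type libraries and replicates 1 and 3 within their range. Without replicate 2 the log2 fold change was 0.10 for Zpbp (adjusted p = 0.711, edgeR) and 0.15 for Zpbp2 (adjusted p = 0.579, edgeR). Leaving out replicate 1 or 3 gave 0.34 or 0.35 for Zpbp and 0.51 or 0.52 for Zpbp2, none with an adjusted p under 0.05.

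The log2 ratio of Zpbp to Zpbp2 within a library was -0.46 ± 0.06 (SD, n = 5) in the wild type and -0.57 ± 0.15 (SD, n = 4) in Rfx2-/-. The difference of -0.11 did not pass the exact permutation test (two-sided, p = 0.175, adjusted over 2 ratios 0.175). Without Rfx2-/- replicate 2 it was -0.04 (adjusted p = 0.393, exact permutation test). It was 0.08 once the trend of counts with gene length had been removed from each library, so that no direction can be given.

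Per kb of exon, the wild type order of levels was Zpbp2 (181 ± 16.7 CPM per kb, SD, n = 5), Acr (152 ± 17.7), Acrv1 (136 ± 21.2), Acrbp (115 ± 15.6), Spaca1 (93.3 ± 13.3), Spaca3 (90.8 ± 17.3), Dpy19l2 (74.0 ± 9.84), Spaca7 (73.2 ± 13.2), Izumo1 (51.5 ± 8.74) and Zpbp (50.8 ± 4.79). All 9 pairs of neighbours in this order overlapped in their wild type ranges. Within libraries, 4 of the neighbours kept their order in all 5, namely Zpbp2 over Acr, Acrv1 over Acrbp, Acrbp over Spaca1 and Spaca7 over Izumo1. In Rfx2-/- testes Dpy19l2 stood last, at 34.6 ± 11.2 CPM per kb (SD, n = 4), next to Izumo1 at 49.3 ± 7.80, which was the higher of them in 3 of 4 libraries.

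**Figure D3:**
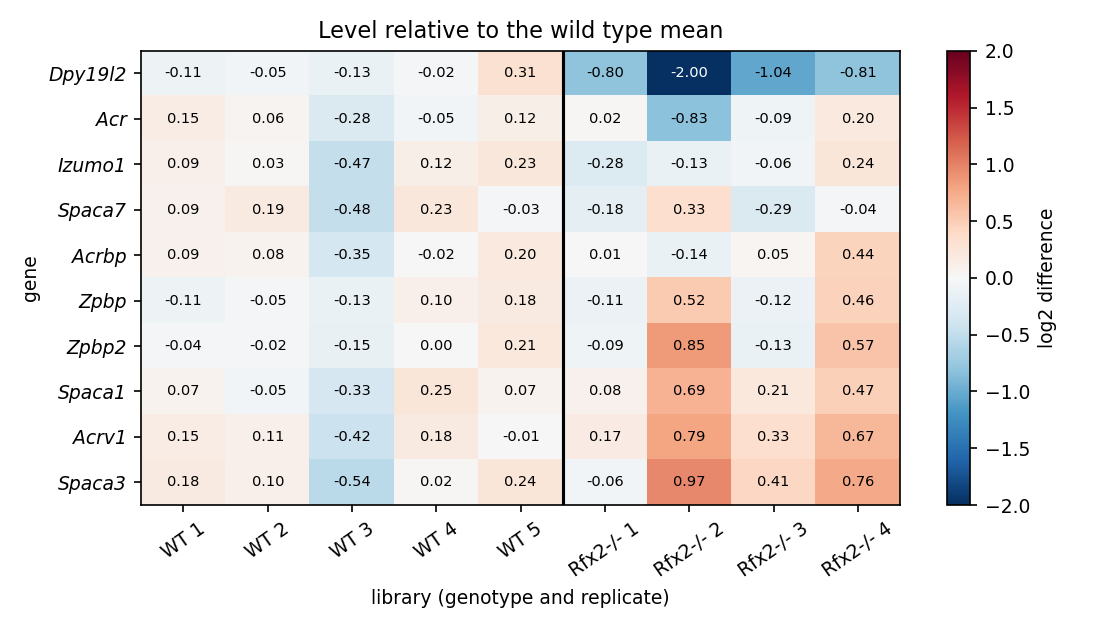
Log2 level of each of the 10 acrosome genes in each of the 9 libraries relative to the wild type mean, with the value printed in each cell (blue lower, red higher). The Dpy19l2 row is below 0 in every Rfx2-/- library, -2.0 to -0.80, and the column of wild type replicate 3 is below 0 in every row.

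The libraries of a genotype differed in the level of the whole group. All 10 genes had their lowest wild type value in wild type replicate 3, with a median log2 deviation of -0.34 from the wild type mean. In the other 4 it was 0.04 to 0.19. Among the knockout libraries replicate 2 was the highest for 6 of the genes and the lowest for 3, Dpy19l2, Acr and Acrbp. In that library the log2 differences from the wild type mean were -2.0 for Dpy19l2 and -0.83 for Acr, and 0.97, 0.85 and 0.79 for Spaca3, Zpbp2 and Acrv1. Exon lengths are 3442 bases for Dpy19l2, 1504 for Acr, 951 for Spaca3, 1639 for Zpbp2 and 1101 for Acrv1. With the length trend removed from each library, the log2 fold change was -1.09 for Dpy19l2 (adjusted p = 0.00358, edgeR), close to the value without this step. It was lower than without this step for Acrv1 (0.32), Spaca3 (0.34), Zpbp2 (0.19), Spaca1 (0.22), Acrbp (0.07), Acr (-0.22), Spaca7 (-0.23) and Izumo1 (-0.19), and higher for Zpbp (0.30), and none of these 9 had an adjusted p under 0.05 by edgeR.

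Markers of spermatid stages were set beside these levels. The study describes an arrest of Rfx2-/- spermatids before elongation. It counts mRNAs of transition proteins among those that late round spermatids already hold. The list of 12 markers of elongating spermatids, such as protamines and transition proteins, is therefore no measure of elongating cells alone. Its median log2 fold change was -0.66, with 11 of the 12 below 0. Of the 12, 0 were called and 5 were lower at an adjusted p of at most 0.05, against 7.31% of all genes. The summed level of the list was 8811 to 18674 CPM in the wild type and 7068 to 11465 CPM in Rfx2-/-. Wild type replicate 3 gave the lowest wild type sum. The study states that Tnp1 and Tnp2 mRNAs were not reduced. Here Tnp1 had -1.12 (adjusted p = 0.0416, edgeR) and Tnp2 -0.77 (adjusted p = 0.0927, edgeR), neither called. For the 10 round spermatid markers tested the median was -0.05, with 5 below 0, and 1 was called lower. They ran from Tex21 at -3.54, the called gene, to Catsper4 at 0.76 (adjusted p = 0.00515, edgeR, under 2-fold). At an adjusted p of at most 0.05 there were 1 lower and 1 higher, against 7.31% and 3.48% of all genes. The sums were 1847 to 3565 CPM in the wild type and 1856 to 2948 CPM in Rfx2-/-. Markers of pachytene spermatocytes had a median of 0.02, of spermatogonia 0.07, of Sertoli cells 0.21, of Leydig cells 0.20 and of macrophages 0.03. In each of these lists 0 were called. The part of cell composition in the levels of the acrosome genes was not tested.

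**Figure D4:**
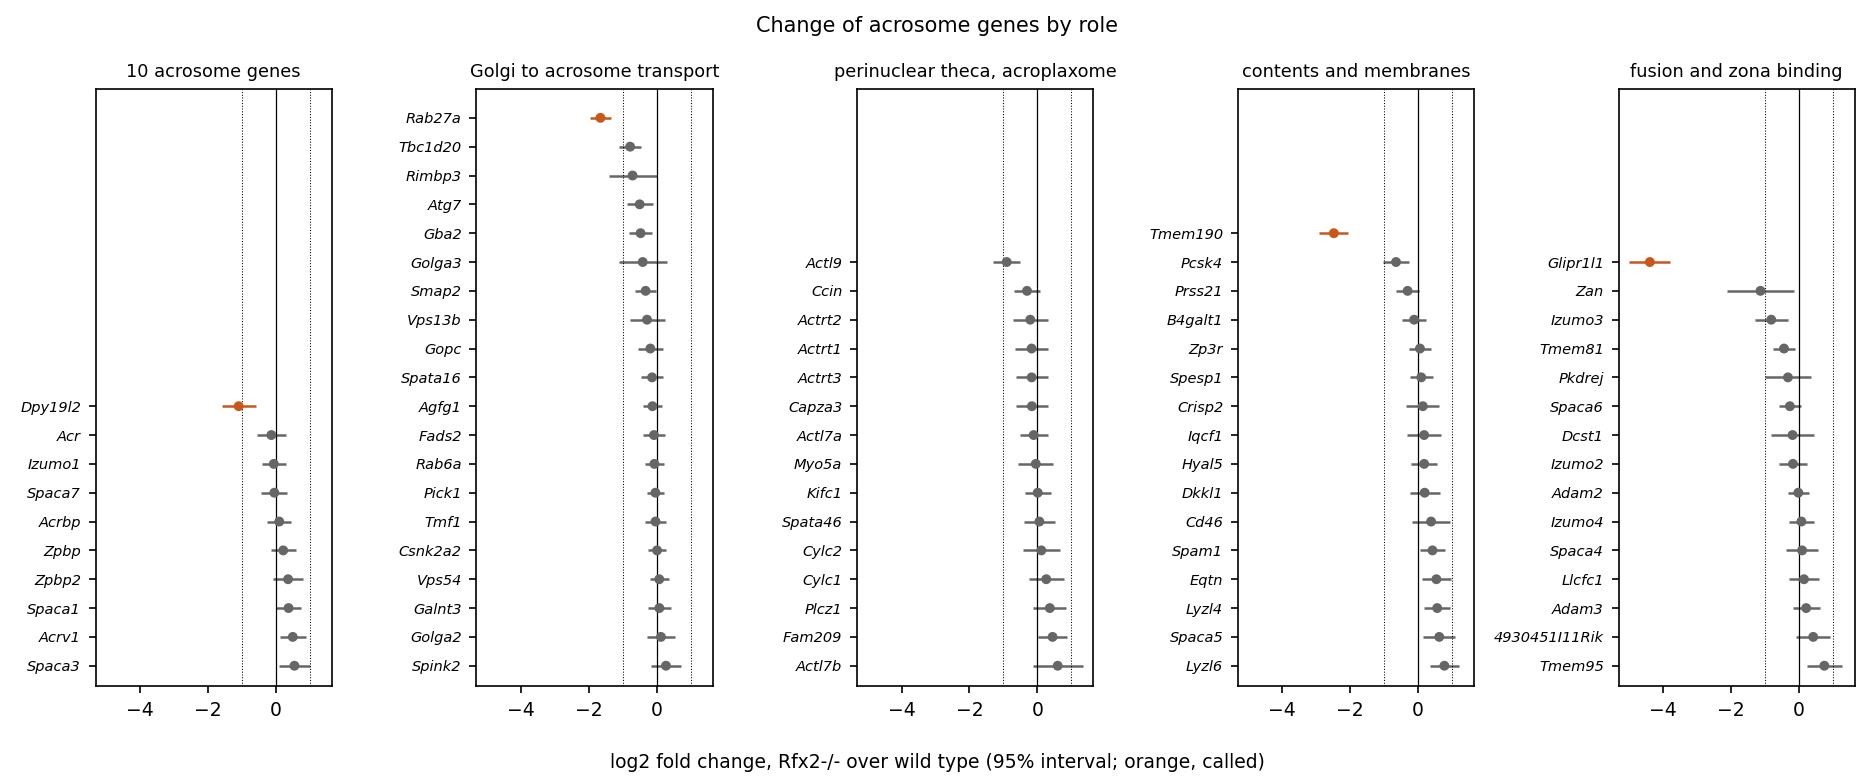
Log2 fold change of Rfx2-/- over wild type with its 95% interval for the 10 acrosome genes and for 66 further acrosome genes in 4 roles; orange marks called genes, dotted lines a 2-fold change and the solid line no change. Dpy19l2, Rab27a, Tmem190 and Glipr1l1 were called lower, at -1.10, -1.65, -2.48 and -4.39.

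A wider list of acrosome genes, written from general knowledge and grouped by role, gave the surroundings of the 10. Its 67 genes with counts included 66 that were tested. Of these, 3 were called lower and 0 higher, against 3.68% and 0.826% of all genes tested. At an adjusted p of at most 0.05 there were 7 lower and 1 higher, against 7.31% and 3.48%. The same shares stand beside the counts by role below. The median log2 fold change of the 66 genes was -0.04, with 36 below 0. Rab27b was too low to test, with 1 to 7 counts in a library and means of 0.208 CPM in the wild type and 0.291 CPM in Rfx2-/-. The study names Rab27b as downregulated, which these counts neither show nor can test.

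The role of Golgi to acrosome transport is a broad group that also holds enzymes such as Galnt3, and it included 1 called lower of 20 tested. It was Rab27a, a small GTPase of secretory vesicles, at 22.5 ± 0.99 CPM (SD, n = 5) and 7.13 ± 1.03 CPM (SD, n = 4). Its log2 fold change was -1.65 (SE 0.15, adjusted p = 1.04e-05, edgeR). Tbc1d20, named after its value was seen, had -0.78 (adjusted p = 0.00425, edgeR) and no call. The highest of this role was Spink2, a protease inhibitor of the acrosome, at 0.27 (adjusted p = 0.41, edgeR). Among the 15 genes of the perinuclear theca and the acroplaxome 0 were called, from Actl9 at -0.90 (adjusted p = 0.00687, edgeR, under 2-fold), an actin-like protein of the theca, to Actl7b at 0.60 (adjusted p = 0.266, edgeR). Actl9 was at 206 to 379 CPM in the wild type and at 141 to 189 CPM in Rfx2-/-, without overlap.

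Among 16 further genes of contents and membranes, 1 was called lower, Tmem190, which encodes a membrane protein of the inner acrosome. It was at 36.3 to 59.3 CPM in the wild type and at 7.44 to 11.9 CPM in Rfx2-/-, a log2 fold change of -2.48 (SE 0.20, adjusted p = 4.22e-06, edgeR). Pcsk4, named after its value was seen, had -0.65 (adjusted p = 0.0317, edgeR) and no call. The highest of the role was Lyzl6, a lysozyme-like gene, at 0.77 (SE 0.19, adjusted p = 0.0221, edgeR), with 69.0 to 106 CPM in the wild type and 110.3 to 198 CPM in Rfx2-/-. It was the single gene of the wider list that was higher at an adjusted p of at most 0.05.

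Among 15 genes of gamete fusion and zona binding, 1 was called lower, Glipr1l1, a cysteine-rich secretory protein family member found on the acrosomal membrane. It was at 29.6 to 42.9 CPM in the wild type and at 1.18 to 3.21 CPM in Rfx2-/-, 4.83% of the wild type mean. The log2 fold change was -4.39 (SE 0.28, adjusted p = 5.47e-07, edgeR). The highest of the role was Tmem95, a fusion protein gene, at 0.75 (adjusted p = 0.0646, edgeR). Izumo3, a relative of Izumo1 named after its value was seen, was lower at an adjusted p of at most 0.05 without a call (-0.81, adjusted p = 0.0353, edgeR).

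Glipr1l1 was also listed with an RFX2 promoter peak, and its promoter is printed for comparison with that of Dpy19l2, since it held an X-box. The RefSeq window is chr10:112059939-112060238, plus strand, and the capitals mark the X-box, which began at base 2 of the transcript.

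Glipr1l1: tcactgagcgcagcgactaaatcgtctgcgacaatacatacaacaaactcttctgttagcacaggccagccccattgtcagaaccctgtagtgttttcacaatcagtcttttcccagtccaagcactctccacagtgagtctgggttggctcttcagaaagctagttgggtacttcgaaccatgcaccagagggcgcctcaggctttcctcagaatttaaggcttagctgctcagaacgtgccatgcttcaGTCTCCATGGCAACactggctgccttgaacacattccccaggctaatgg

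Both genes lay in the list of promoter peaks and both fell, Dpy19l2 to 46.7% and Glipr1l1 to 4.83% of the wild type mean. Only the Glipr1l1 window held an exact X-box, but it was chosen for that, so the contrast is not a result. The windows of Rab27a and Tmem190, also called lower, were not looked at one by one. Whether an X-box lies under the Dpy19l2 peak outside the window was not tested.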

How the data were processed

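RNA-seq of 9 testes was deposited as raw counts per gene. The authors extracted RNA on RNeasy columns, made TruSeq libraries and sequenced single reads of 50 bases. Per the labels, CASAVA 1.8.2, STAR 2.4 and featureCounts 1.4.6 were used with GRCm38. According to the methods, reads with several positions and reads on exons of different genes were discarded, which lowers genes with copies or overlaps. Another read length and aligner are given elsewhere, and the use of strand is not stated.

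Genotypes came from the labels, and replicate numbers follow the order of deposition. Genes were named from GENCODE M21, which held 96.6% of the IDs. Counts were tested with edgeR 4.0.16 (R 4.3.3; TMM, filterByExpr, robust quasi-likelihood F test, Benjamini-Hochberg over 15613 genes), checked on simulated counts, with a log2 prior count of 0.5. The SE is the log2 fold change over the square root of F. Pairs of libraries of a genotype differed by a chi-square of at least 4.52 per gene, so none was taken as a duplicate. A limit of 3 counts, the most that 0 counts allow, corresponds to 0.0996 to 0.234 CPM and covers counting error only. Ratios were tested with scipy 1.17.1. The members, lists and tests were chosen with earlier results of these data known. Named were all 10 members, Rfx2, the called genes and the extremes of each role of the wider list, and the 5 genes most like a called member. Promoters are from RefSeq and the peak and CREM lists from the study's supplementary tables. Alternatives were other scaling, filters, tests, a length correction and leaving out each library.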

Additional observations from a re-analysis of the deposited data

Results flagged for a closer look

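In 52 groups of 4 or 5 libraries tested for a library far from the others, 5 values stood out, where chance gives about 1 in 20, or 2.6, and none of the 5 was in Rfx2-/- replicate 2. Dpy19l2 was at 313.9 CPM in wild type replicate 5, and the remaining 4 libraries of that genotype held 230.7 to 250.1 CPM. The other values were all of wild type replicate 3, as medians of the log2 deviation from the wild type mean. The 10 acrosome genes stood at -0.34 there, compared with 0.04 to 0.19 elsewhere in the genotype. The wider list stood at -0.35 against 0.04 to 0.16, its contents genes at -0.36 against 0.06 to 0.18 and its fusion and zona genes at -0.37 against 0.08 to 0.15. These lists share libraries and are not independent of each other.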

How the results depend on the processing

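Dpy19l2 kept its direction under all 15 alternatives, with a log2 fold change of -1.18 to -0.89 and an adjusted p of 5.98e-05 to 0.0283, but its call depended on them. It was the one member called, so that 0 members were called lower with total counts (log2 fold change -0.97, adjusted p = 0.0102, edgeR) and in a test against a 2-fold change. Leaving out each library in turn gave 0 to 1. Members higher at an adjusted p of at most 0.05 numbered 3 with total counts and 0 to 2 on leaving out a library, the 2 being without Rfx2-/- replicate 1. Total counts moved the median of all genes from 0.03 to 0.16, and Spaca7 and Izumo1 then stood at 0.0942 and 0.0764. Leaving out a library moved Spaca7 between -0.19 and 0.0664, Izumo1 between -0.14 and 0.0415, Acr between -0.23 and 0.0395 and Acrbp between -0.0029 and 0.17, so that these 4 have no settled direction. The Zpbp to Zpbp2 difference was 0.0754 with the length trend removed, and 5 genes of the wider list were then called lower in place of 3. Over all genes, 575 were called lower and 129 higher. A test against a 2-fold change called 272 lower and 29 higher, DESeq2 called 211 higher and an unadjusted p called 262 higher. The cause of these changes was not tested. No paired analysis was possible because the labels give the animals no shared replicate numbers. Depth did not limit the members, all of which had at least 612 counts in every library.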
